A study of Mus musculus with 6 samples.

Results

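The genes described here are 8 genes of Schwann cells and other peripheral glia, *Sox10*, *Erbb3*, *Ngfr*, *Gfra3*, *Lgi1*, *Lgi4*, *S100b* and *Cdh19*, out of 24421 rows in the table of expression values. They were chosen by name, with their levels in these same libraries already known, because *Gfra3* and *Lgi1* had values in every library of one lineage and none in the other. The difference between lineages is therefore given for them as a description, without a test. All 8 have a row of their own in the table.

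RNA was sequenced from living GFP+ cells of mice aged 8 weeks, on the 129S6/SvEv background. The cells came from the aortic root together with the ascending aorta. All mice carried the CAG-Sun1/sfGFP tracer allele, a nuclear GFP that is switched on by Cre, and the column headers mark all 6 libraries as WT. In 3 libraries it was combined with the Mef2cSHF allele, which marks descendants of the secondary heart field (SHF), and in 3 with Wnt1-Cre2, which marks descendants of the neural crest and is used here to trace the cardiac neural crest (CNC). Cre marks an origin and not a cell type, so the sorted cells could include any descendant of the traced field in the dissected tissue. Neither the number of mice per library nor their sex is given in the labels. Levels are in TPM, transcript abundances corrected for length and scaled to one common total in each library, which keep no record of sequencing depth. The cDNA was amplified from little RNA, and genes can be listed at 0 in 1 library and well above 0 in another of the same lineage, so 0 is given below as listed at 0 and not as absence. Between 9255 and 11858 rows were above 0 in a library. *Xist* was above 0 in SHF replicates 2 and 3 only, and the Y-linked *Ddx3y* and *Eif2s3y* in the 4 other libraries only, so that the sex of the mice and the lineage are partly confounded and their parts in a difference cannot be fully told apart.

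Schwann cells ensheath the axons of peripheral nerves, including those that run in the adventitia of arteries, and they descend from the neural crest. The transcription factor SOX10 establishes and maintains the glial fate, and neuregulin from axons, acting through ERBB3 with its partner ERBB2, keeps Schwann cells and their precursors alive and dividing. Neural crest cells also give rise to neurons, melanocytes and, in the great arteries, smooth muscle.

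*Gfra3* and *Lgi1* were the members whose lineages did not overlap, and both were listed at 0 in every SHF library. The levels of the other 6 overlapped between SHF and CNC libraries. Of the 8 genes, 5 were above 0 in at least 1 SHF library and 8 in at least 1 CNC library. The study's methods call a transcript exclusive to a lineage with a threshold of 5 TPM in all 3 of its libraries, and a value of 0 throughout the opposite lineage was taken here as the second condition. Over all rows 15 transcripts, or 0.0614%, were CNC-exclusive by this filter, or 26 if the SHF libraries are allowed under 1 TPM, and *Gfra3* and *Lgi1* are 2 of them. Nothing is read from this share, because these 2 genes were chosen on it. With any 1 library left out, 27 to 116 transcripts passed, the fewest without SHF replicate 2 and the most without SHF replicate 1. *Gfra3* and *Lgi1* were among them each time, which was fixed beforehand, since leaving a library out only drops a requirement. Among the 10185 genes tested, those reaching 1 TPM in 3 or more libraries, every CNC library was above every SHF library for 5.68%, and every SHF library above every CNC library for 6.11%. No member was higher in every SHF library. A lower level in bulk RNA cannot tell fewer cells of a type from less RNA per cell.

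**Figure D1:**
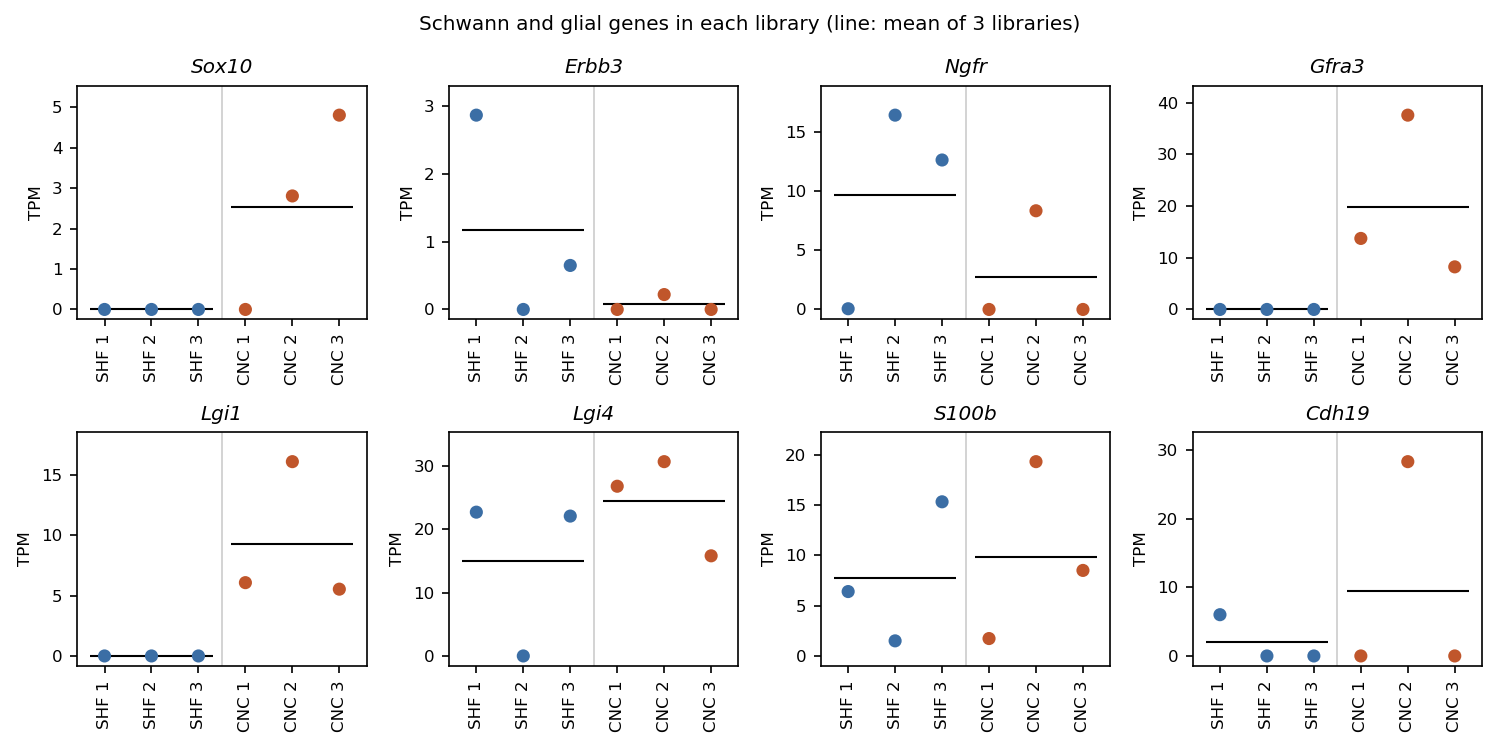
TPM of each of the 8 genes in each library, with SHF replicates in blue, CNC replicates in orange and a line at the mean of 3 libraries; each panel has its own axis. *Gfra3* and *Lgi1* are above 0 in the 3 CNC libraries and listed at 0 in the 3 SHF libraries, and the highest point of 5 of the 8 genes is CNC replicate 2.

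*Sox10* encodes the factor that defines the glial branch of the neural crest. The gene lies on chromosome 15 of GRCm38 from 79154908 to 79165240, on the minus strand. It was listed at 0 in SHF replicates 1, 2 and 3, and CNC replicates 1, 2 and 3 held 0, 2.81 and 4.81 TPM. Its detection was thus limited to 2 CNC libraries, and the third CNC library gave the same value as the SHF libraries. With under 1 TPM in 4 of 6 libraries it was not among the genes tested for a difference.

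The receptors among the members did not share one pattern. *Erbb3*, the neuregulin receptor, lies on chromosome 10 from 128567523 to 128589652. Its levels were 2.87, 0 and 0.65 TPM for SHF replicates 1 to 3, against 0, 0.22 and 0 TPM for CNC replicates 1 to 3. This was the lowest mean of the 8 genes, 0.62 TPM over the 6 libraries, and its highest value came from an SHF library.

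*Ngfr* encodes p75, the low-affinity neurotrophin receptor, which marks migrating crest cells and Schwann cells but is also made by some mesenchymal cells. It lies on chromosome 11 from 95568818 to 95587735. SHF replicates 1 to 3 had 0.06, 16.42 and 12.63 TPM and CNC replicates 1 to 3 had 0, 8.34 and 0 TPM. The 2 highest values were from SHF replicates 2 and 3, the libraries with *Xist*, and both of the lowest from CNC libraries. With these 2 SHF libraries set aside, the only SHF value was 0.06 TPM, within the range of the CNC libraries.

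*Gfra3* encodes the GPI-anchored co-receptor for artemin, a ligand of the GDNF family, and is known from sensory and sympathetic neurons and from Schwann cell precursors. It lies on chromosome 18 from 34689898 to 34720387. The gene was listed at 0 in all 3 SHF libraries, and stood at 13.74, 37.59 and 8.24 TPM in CNC replicates 1, 2 and 3. Within the CNC libraries the highest value was 4.56 times the lowest. Its lowest CNC value, 8.24 TPM, clears the 5 TPM of the filter but would not clear 10 TPM.

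*Lgi1* and *Lgi4* encode secreted leucine-rich repeat proteins that bind receptors of the ADAM family. *Lgi1* is best known from synapses, where its loss causes epilepsy, and *Lgi4* is made by Schwann cells and is needed for myelination of peripheral nerves. *Lgi1*, on chromosome 19 from 38264536 to 38312214, was listed at 0 in all 3 SHF libraries. CNC replicates 1, 2 and 3 had 6.07, 16.09 and 5.53 TPM, a range of 2.91 times. Among the members, *Lgi1* lies just inside the 5 TPM filter, with a lowest CNC value of 5.53 TPM, and no member lies close outside it. *Sox10*, the other member listed at 0 throughout SHF, had a lowest CNC value of 0.

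*Lgi4*, on chromosome 7 from 31059342 to 31070935, had the highest mean of the 8 genes, 19.67 TPM. It was at 22.69, 0 and 22.07 TPM for SHF replicates 1 to 3 and at 26.78, 30.66 and 15.8 TPM for CNC replicates 1 to 3. Its values in SHF replicates 1 and 3 lie inside the CNC range, and SHF replicate 2 alone was listed at 0. Of these related genes, *Lgi4* was present in 5 of 6 libraries and *Lgi1* in 3, and the pattern of *Lgi1* was fixed by its choice. The 2 genes had no stretch of 50 bases in common in their annotated transcripts. Of the exonic bases of *Lgi4*, 44.9% overlap exons of *Fxyd3* on the opposite strand, and the protocol is not stated to keep strand, so reads there could come from either gene. *Fxyd3* itself was low, at 1.37, 0 and 0 TPM in the SHF libraries and 0, 7.81 and 0.64 TPM in the CNC libraries.

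*S100b* and *Cdh19* are further glial markers. *S100b* encodes a calcium-binding protein of glia that chondrocytes and adipocytes make as well. The gene, on chromosome 10 from 76253853 to 76261159, was the only member above 0 in all 6 libraries. It was at 6.4, 1.5 and 15.32 TPM for SHF replicates 1 to 3, a mean of 7.74 ± 7.01 TPM (SD, n = 3). In CNC replicates 1 to 3 it was at 1.73, 19.31 and 8.5 TPM, a mean of 9.85 ± 8.87 TPM (SD, n = 3). The lineage means were closer to each other than the libraries of either lineage.

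*Cdh19* encodes a cadherin of Schwann cell precursors and lies on chromosome 1 from 110888326 to 110977584. It was above 0 in 1 library of each lineage, 6.02 TPM in SHF replicate 1 and 28.35 TPM in CNC replicate 2. The other 4 libraries were listed at 0, and its CNC mean rested on that single library.

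Over the 8 genes, 20 of the 48 values were listed at 0, 13 of 24 in SHF libraries and 7 of 24 in CNC libraries. Of the SHF zeros, 6 belong to *Gfra3* and *Lgi1* and follow from how these were chosen, and the other 6 genes were at 0 for 7 of 18 values in each lineage. Among all 7233 rows with a mean from 0.62 to 19.67 TPM, the range of the members, 32.9% of values were at 0, against 41.7% for the members, and 25.8% of rows were above 0 in all 6 libraries. The median difference of the 8 genes, SHF minus CNC on the log2(TPM + 1) scale, was -1.09, which includes the 2 genes chosen for their difference. Without *Gfra3* and *Lgi1* the median of the other 6 was -0.48, of which 4 had the higher mean in CNC libraries and 2, *Ngfr* and *Erbb3*, in SHF libraries. *S100b* and *Cdh19*, among the 4, changed sign without CNC replicate 2, and *S100b* also without SHF replicate 2. With CNC replicate 2 or SHF replicate 2 left out, the median of the other 6 was above 0, so its sign rested on these libraries. Over all genes tested, 5 of the 8 included, the median was 0.02. Without SHF replicate 2, in which 2 of the 8 genes were above 0, the median of the 8 was -0.14. Without CNC replicate 2, in which 8 of the 8 were above 0, it was -0.44. With 5 TPM in place of 1 TPM added to each value it was -0.54, and with 0.1 TPM it was -1.71. A filter of at least 1 TPM in 3 libraries passed 5 of the 8 genes and left out *Sox10*, *Erbb3* and *Cdh19*, and *Gfra3* and *Lgi1* could pass it only through their CNC libraries.

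**Figure D2:**
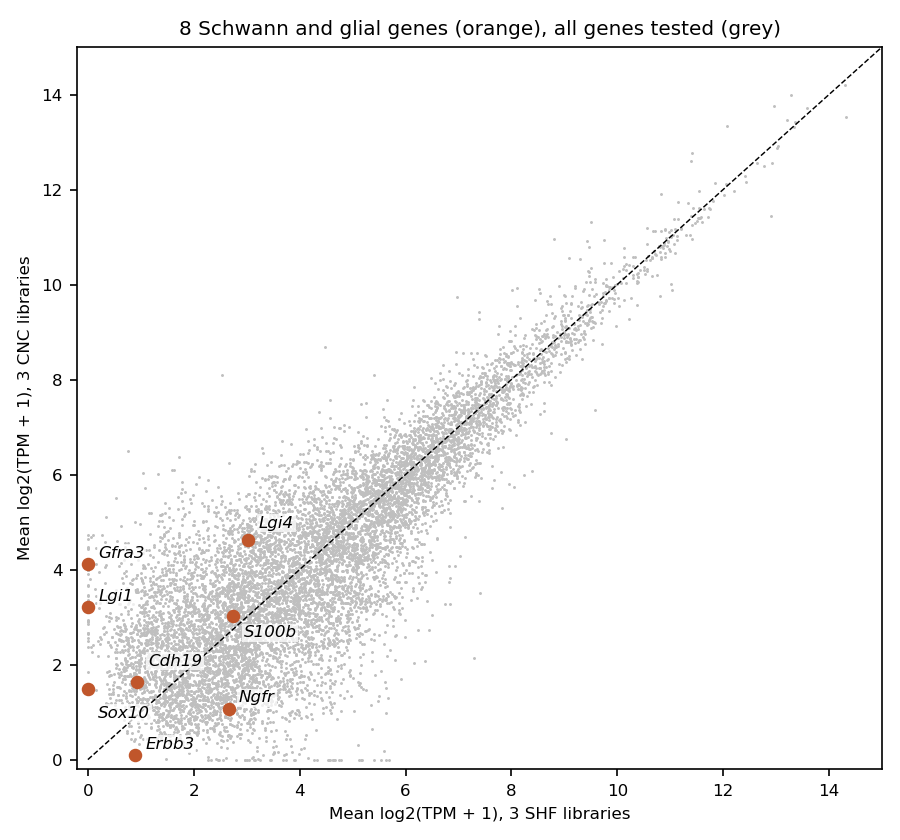
Mean log2(TPM + 1) over 3 SHF libraries (horizontal axis) against 3 CNC libraries (vertical axis) for the 8 genes in orange and the 10185 genes tested in grey, with a dashed line of equal level. *Gfra3*, *Lgi1* and *Sox10* lie on the vertical axis at 0 for SHF, and *Ngfr* and *Erbb3* lie below the line.

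CNC replicate 2 stood apart in the summed level of the 8 genes. The sums were 38, 17.9 and 50.7 TPM in SHF replicates 1, 2 and 3, a mean of 35.5 ± 16.5 TPM (SD, n = 3). CNC replicates 1, 2 and 3 summed to 48.3, 143.4 and 42.9 TPM, a mean of 78.2 ± 56.5 TPM (SD, n = 3). The lineages overlapped, because CNC replicates 1 and 3 were below SHF replicate 3. The CNC mean without replicate 2 was 45.6 TPM. *Gfra3*, *Lgi1*, *Lgi4*, *S100b* and *Cdh19* were highest in CNC replicate 2. The choice of *Gfra3* and *Lgi1* already placed their highest value in a CNC library, and of the other 6 genes, 3 were highest in CNC replicate 2. That library held the highest value for 16.1% of all genes tested, among which *Cdh19* was not. Of 10 leukocyte genes, *Lyz2*, *C1qa* and *Csf1r* were also highest in CNC replicate 2, at 58.85, 44.05 and 25.85 TPM. *Cd68*, at 0 there, was highest in SHF replicate 3 at 26.9 TPM, and *Cd74* was highest in SHF replicate 2. *Ptprc*, the common leukocyte antigen, and *Adgre1*, *Itgam* and *Cd3e* were listed at 0 throughout, and the part of such differences between libraries in the glial values was not tested. Without *Gfra3* and *Lgi1*, the other 6 genes summed to 38.04, 17.92 and 50.67 TPM in SHF replicates 1 to 3. In CNC replicates 1 to 3 they summed to 28.51, 89.69 and 29.11 TPM. Apart from CNC replicate 2, the CNC sums were below those of SHF replicates 1 and 3.

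The partners of these proteins were followed through 6 lists, 59 genes in all, of ligands, receptors, myelin and other glial genes. The limma fit covered the 10185 genes on the log2(TPM + 1) scale, as SHF minus CNC, with Benjamini-Hochberg adjustment. In this fit 0% of all genes tested, and so none of the 6 lists' genes in either direction, had an adjusted p under 0.05, while before adjustment 597 genes had p under 0.05. Over all genes the lowest adjusted p was 0.433. Where the lineages of a partner gene do not overlap, the values below are given as they stand and no difference passed the test.

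Of the GDNF family, 8 genes were listed and 3 tested, and the median difference of the 8 was 0.43. Without SHF replicate 1, 2 or 3 it was 0.06, 0.11 or 0.18, without CNC replicate 2 it was -0.15, and without CNC replicate 3 it was 0.76, so its sign rested on CNC replicate 2. The co-receptors other than *Gfra3* did not share the pattern for which *Gfra3* was chosen. *Gfra2*, the neurturin co-receptor, was the most abundant gene of the list, at 60.09, 132.44 and 110.81 TPM in the SHF libraries and 81.17, 36.33 and 170.25 TPM in the CNC libraries. *Gfra1*, the GDNF co-receptor, ran the other way from *Gfra3*. Its SHF libraries held 31.25, 29.75 and 0.8 TPM, and it was listed at 0 in all 3 CNC libraries. *Gfra4*, the persephin co-receptor, was at 1.17, 25.19 and 0 TPM for SHF and 0, 0 and 15.65 TPM for CNC. *Artn*, the ligand of the receptor that *Gfra3* forms, was above 0 in 4 libraries, with 13.3 TPM in SHF replicate 1 as its highest value. *Ret*, the kinase through which these co-receptors signal, did not exceed 0.35 TPM in any library.

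Of the LGI group, 5 genes were listed and 4 tested, and the median difference of the 5 was -2.47, which is the value of *Lgi2*. *Lgi2*, a further secreted LGI protein, was listed at 0 in all but CNC replicates 1 and 2, at 11.86 and 12.19 TPM. Over the 4 genes tested the median was -1.52. Over the 5 it was -4.61 with 0.1 TPM added to each value and -1.18 with 5 TPM added. *Adam22*, the main receptor of LGI proteins on axons, was found in all 6 libraries. It had a mean of 28.9 ± 20.5 TPM (SD, n = 3) for SHF and 14.2 ± 11.5 TPM (SD, n = 3) for CNC. The related *Adam23* and *Adam11* were both higher in every CNC library than in every SHF library. *Adam23* was at 0, 0 and 1.14 TPM in the SHF libraries and 9.1, 6.51 and 15.91 TPM in the CNC libraries (log2 difference -3.08, SE 1.07, limma adjusted p 0.692). *Adam11* was listed at 0 in the 3 SHF libraries and at 6.31, 9.38 and 3.94 TPM in the CNC libraries (limma adjusted p 0.658). It entered the fit only through its CNC libraries, so its p-value is given as a description. *Lgi3* was found in 2 libraries of each lineage, with 23.21 TPM in SHF replicate 2 as its highest value.

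Of the neuregulins and their receptors, 7 genes were listed and 4 tested, and the median difference of the 7 was 0. *Erbb2*, the signalling partner of *Erbb3*, was above 0 in every library, at 26.7 ± 28.6 TPM (SD, n = 3) for SHF and 11.2 ± 4.2 TPM (SD, n = 3) for CNC. *Egfr*, the founding receptor of the family, was at 49.6 ± 30.8 TPM (SD, n = 3) for SHF and 84.6 ± 34.8 TPM (SD, n = 3) for CNC. *Erbb4*, the other neuregulin receptor, was at 8.65, 59.12 and 3.17 TPM in the SHF libraries and 0, 0.25 and 0 TPM in the CNC libraries (log2 difference 3.64, SE 1.24, limma adjusted p 0.688). It entered the fit only through its SHF libraries, so these fitted values are given as a description. Thus *Erbb4* and the much lower *Erbb3* both had their highest values in SHF libraries. The ligands were low, since *Nrg2* and *Nrg3* were listed at 0 throughout and *Nrg1* reached 8.68 TPM in SHF replicate 3 as its highest value.

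Of the neurotrophins and their receptors, 8 genes were listed and 5 tested, and the median difference of the 8 was 0.22, while that of the 5 tested was -0.65. Over the 8 it was -0.02 without CNC replicate 2, 0 without SHF replicate 3, and 0.42 and 0.36 without CNC replicate 1 and SHF replicate 1. *Ntf3*, encoding neurotrophin-3, was at 84.1 ± 25.7 TPM (SD, n = 3) for SHF and 75.1 ± 41.8 TPM (SD, n = 3) for CNC. Its receptor *Ntrk3* was at 16.69, 14.37 and 12.48 TPM in the SHF libraries and 28.58, 17.69 and 24.46 TPM in the CNC libraries, which did not overlap (log2 difference -0.65, SE 0.86, limma adjusted p 0.92). *Ntrk2*, the BDNF receptor, was at 10.8 ± 10.5 TPM (SD, n = 3) for SHF and 28.8 ± 17.3 TPM (SD, n = 3) for CNC. These 3 genes were above 0 in all 6 libraries, unlike *Ngfr*.

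Of 17 myelin genes, 4 were tested and 8 were listed at 0 in all 6 libraries. *Mbp*, encoding myelin basic protein, was above 0 in CNC replicates 2 and 3 only, at 2.84 and 19.48 TPM. It was picked out of the 17 after its values were seen, and other genes of the list were above 0 in SHF libraries only. The most abundant gene of the list, *Pmp22*, was at 1265 ± 62 TPM (SD, n = 3) for SHF and 1543 ± 290 TPM (SD, n = 3) for CNC. Fibroblasts make *Pmp22* too. *Egr2*, a regulator of myelination and an immediate early gene, was at 68.8 ± 53.2 TPM (SD, n = 3) for SHF and 41.6 ± 15.5 TPM (SD, n = 3) for CNC. *Cnp* was listed at 0 in SHF replicate 2 and CNC replicate 1 and lay between 43.97 and 55.78 TPM elsewhere. The median difference of the 17 genes was 0.

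Among 14 genes of immature and non-myelinating glia, 5 were tested, 3 were listed at 0 throughout, and the median difference was -0.25, while that of the 5 tested was 0.04. Over the 14 it ran from -0.44 without SHF replicate 3 to -0.13 without CNC replicate 3, with -0.16 without CNC replicate 1, and was -0.1 with 5 TPM added to each value. Those 3 were *Gfap*, an intermediate filament of glia, and *Foxd3* and *Sox2*, factors of crest and precursor cells. The most abundant was *Matn2*, a matrix protein, at 146 ± 26 TPM (SD, n = 3) for SHF and 303 ± 68 TPM (SD, n = 3) for CNC, which did not overlap (log2 difference -1.04, SE 0.35, limma adjusted p 0.688). *Scn7a*, encoding a sodium channel of non-myelinating Schwann cells, was at 76.4 ± 35.1 TPM (SD, n = 3) for SHF and 77.1 ± 45 TPM (SD, n = 3) for CNC. *Ncam1*, an adhesion molecule, was at 78.7 ± 52.5 TPM (SD, n = 3) for SHF and 62.4 ± 18.9 TPM (SD, n = 3) for CNC. *Sox9*, a relative of *Sox10* in the SOXE group, was higher in every SHF library, at 95.2 ± 36.7 TPM (SD, n = 3) against 42.8 ± 10.4 TPM (SD, n = 3) in CNC libraries (log2 difference 1.09, SE 0.54, limma adjusted p 0.874). *Sox10* and *Sox9* thus had their highest values in different lineages.

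**Figure D3:**
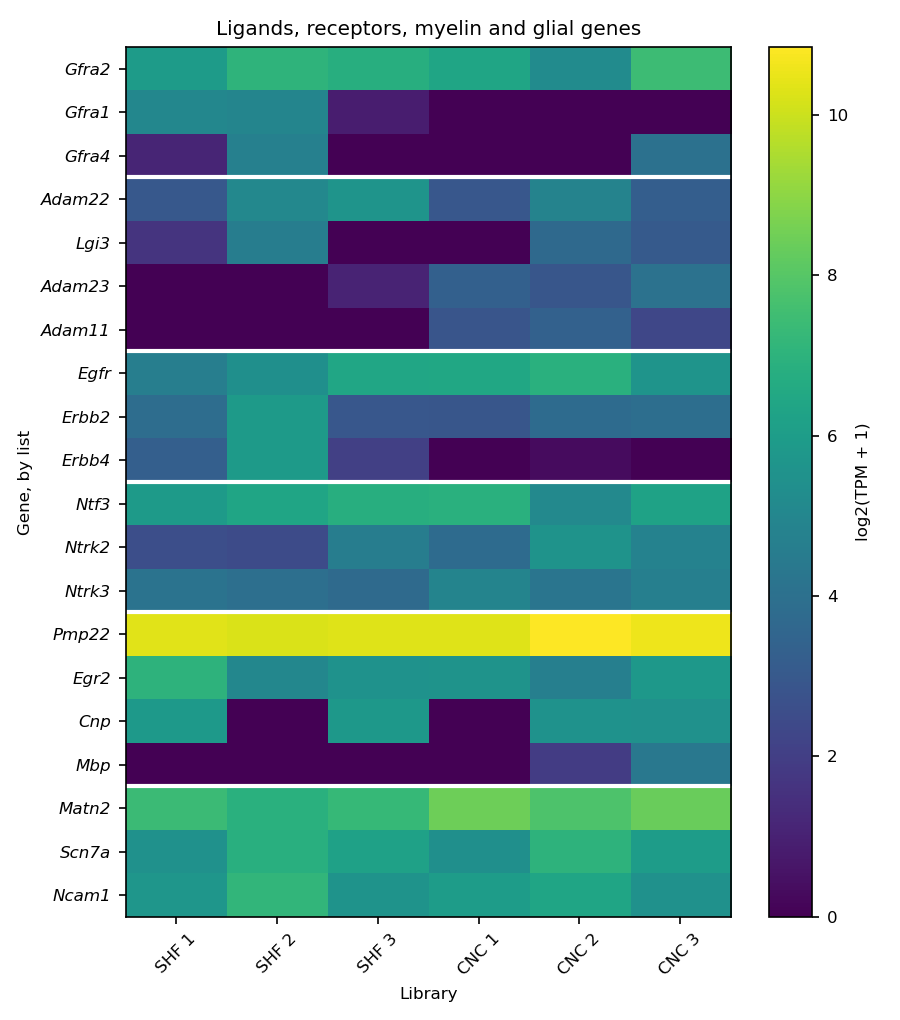
Level on the log2(TPM + 1) scale (colour) of partner genes (rows, grouped by white lines into GDNF co-receptors, LGI group, ERBB receptors, neurotrophin group, myelin and other glial genes) in each library (columns). *Adam11* is above 0 in the 3 CNC columns alone and *Gfra1* in the 3 SHF columns alone.

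The summed glial level was far below that of smooth muscle and fibroblast genes, and above that of neuronal genes in every library. It was above that of melanocyte genes in 5 libraries and below it in SHF replicate 2, at 17.9 against 68.3 TPM. The summed level of 12 smooth muscle genes was 14.9 to 86.5 times that of the 8 genes in the same library, and that of 10 fibroblast genes 447 to 2458 times, with CNC replicate 2 at the low end of both. The lists differ in size, so these ratios describe the libraries and do not count cells. *Acta2* and *Myl9*, the actin and a myosin light chain of smooth muscle, had means over the 6 libraries of 629.65 and 642.77 TPM, and the fibroblast genes *Dcn* and *Gsn* 12861 and 20287 TPM. The summed fibroblast level was higher in every CNC library, 44050.3 to 62793 TPM in SHF libraries and 64021.6 to 70195.1 TPM in CNC libraries, whereas the smooth muscle sums overlapped. Of the 10 fibroblast genes, *Col1a1*, *Col1a2*, *Col3a1*, *Pi16* and *Clec3b*, named after their values were seen, were higher in every CNC library than in every SHF library, against 5.68% of all genes tested. None of the 10 passed the limma test, with 0.465 for *Col1a1* as the lowest adjusted p.

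Of the other derivatives of the neural crest, neurons gave little signal, because 10 of 12 neuronal genes were listed at 0 in every library. *Tubb3* in SHF replicate 1, at 30.28 TPM, and *Elavl4* in SHF replicate 2, at 9.18 TPM, were the exceptions, and no neuronal gene was above 0 in a CNC library. Of 8 melanocyte genes, *Dct*, *Pmel*, *Mlana* and *Tyrp1* were listed at 0 throughout. *Tyr*, which encodes tyrosinase, lay between 8.68 and 24.01 TPM in all 6 libraries, and *Ednrb*, the endothelin receptor of melanocytes and of endothelium, was highest in SHF replicate 2 at 44.15 TPM. The summed melanocyte level was 32.4 to 68.3 TPM in SHF libraries and 14.9 to 23.1 TPM in CNC libraries. The summed endothelial level was 89.5 to 591 TPM in SHF libraries and 37.6 to 61 TPM in CNC libraries. *Pecam1*, a junction protein of endothelium, ranged from 9.72 to 147.51 TPM over the 6 libraries. *Emcn*, *Cdh5*, *Tie1*, *Cldn5* and *Vwf* were listed at 0 in all CNC libraries. The other endothelial genes listed were above 0 in some CNC library. Among them, *Tek* was at 36.71 TPM in CNC replicate 1, and *Erg* was highest in CNC replicate 3, at 14.75 TPM. The summed leukocyte level was 177.9 to 386.6 TPM in SHF libraries and 19.5 to 396.1 TPM in CNC libraries, with CNC replicate 2 the highest. *Cd74*, of antigen presentation, reached 386.63 TPM in SHF replicate 2. The part of these other cell types in the glial values was not tested.

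**Figure D4:**
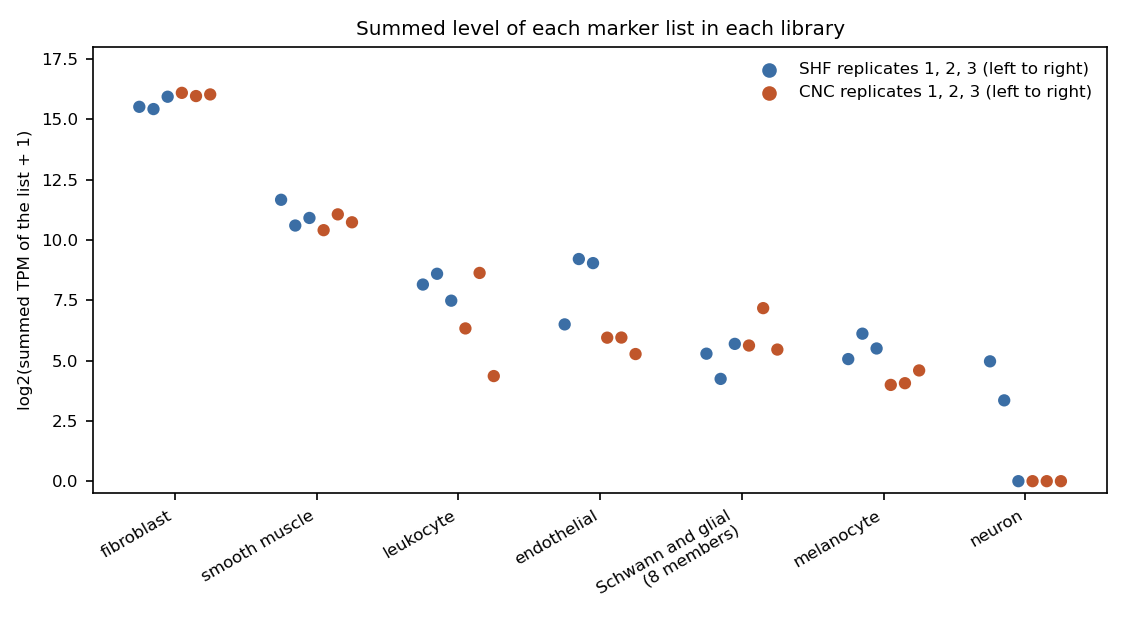
Summed TPM of each marker list in each library on a log2(sum + 1) scale, with SHF replicates in blue and CNC replicates in orange. The 8 glial genes sum to between 17.9 and 143.4 TPM, below the fibroblast and smooth muscle lists in every library, and CNC replicate 2 is the highest glial point.

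The profiles nearest to *Sox10* and *Gfra3* over the 6 libraries were sought among genes other than the glial members described above. The members were left out of the ranking and could not appear in it, so their absence from it is not a result. The profile of *Gfra3* is also the pattern for which that gene was chosen. Nearness was the mean absolute difference in log2(TPM + 1) between 2 genes over the 6 libraries. The genes nearest to *Sox10* were *Ppm1l* (0.00624), *Bdh1* (0.0152) and *Fggy* (0.0885), each above 0 in CNC replicates 2 and 3 only. Those nearest to *Gfra3* were *Fpgt* (0.153), *Hmga1* (0.176) and *Zfp963* (0.214). *Fpgt* was listed at 0 in the SHF libraries, while CNC replicates 1, 2 and 3 held 11.51, 44.98 and 5.86 TPM. The points share their libraries, and with 6 of them many profiles are alike.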

How the data were processed

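Bulk RNA sequencing was performed on 6 libraries of sorted GFP+ cells, 3 per lineage. The authors amplified the RNA by SmartSeq2, prepared libraries with Nextera XT, aligned the reads to mm10 with bowtie2 through RSEM 1.2.25, and deposited gene levels as TPM. The annotation is not given in the sources used here. RSEM divides reads that fit several genes. TPM holds no read totals, and counting intervals and floors were therefore not given. Columns were matched to libraries by library code.

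SHF and CNC were compared in R 4.3.3 by limma 3.58.1 (eBayes with a trend) on log2(TPM + 1), which understates changes of low genes. Genes reaching 1 TPM in 3 or more libraries were included. P-values were Benjamini-Hochberg adjusted over all of them, with a threshold of 0.05. They rest on 3 libraries a lineage, and eBayes draws the spread of each gene toward that of genes of like level. An SE given here is therefore not the spread of that gene's own libraries alone. The fit and the exclusive filter were run on simulated data as a check of the code. The values simulated for the fit were normally distributed, without the many zeros of these libraries. Positions and overlaps are from GENCODE M21 (GRCm38, that is mm10), in which symbols were found for 8 of 8 genes. Stretches of 50 bases of member transcripts were searched in all other genes' transcripts. They occurred there for 10.2% of *Lgi1* and 0.824% of *Ngfr* and for none of the other 6. No protein sequence was used here.

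The 8 genes, the 6 partner lists and the 6 cell type lists were chosen with earlier results of these data known. Named were the 8 genes, the 3 most abundant genes of each partner list, any partner gene exclusive to a lineage or past the threshold, the 2 most abundant of each cell type list and the 3 nearest profiles. *Adam11*, *Lgi2*, *Artn*, *Ret*, *Nrg1*, *Nrg2*, *Nrg3*, *Mbp*, *Sox9*, *Gfap*, *Foxd3*, *Sox2* and *Fxyd3* were named after their values were seen. So were *Cd68*, *Tek*, *Erg*, the marker genes at 0 and those highest in CNC replicate 2. As alternatives, each library was left out, a replicate block was added, the trend was dropped, libraries were rescaled by median of ratios, and the pseudocount (0.1 and 5), filter and exclusive thresholds were changed. Plots were made with Python 3.11.15 and matplotlib 3.10.9. Some genes of the myelin list are not reported here by name.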

Additional observations from a re-analysis of the deposited data

How the results depend on the processing

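Values of 0 and unknown depth limit every statement on these low genes. With 10 TPM in place of 5 TPM, the only stricter threshold tried, 0 members and 6 transcripts were CNC-exclusive. *Gfra3* and *Lgi1* passed in every other setting, but all of these except the rescaling only loosen the filter and so could not remove them. The 15 CNC-exclusive transcripts over all rows became 33 with 1 TPM and 26 with the SHF libraries allowed under 1 TPM, and 27 (without SHF replicate 2) to 116 (without SHF replicate 1) with each library left out, which removes a requirement. Members not overlapping were 2 to 3 with each library left out, *Sox10* being the third without CNC replicate 1 and *Lgi4* without CNC replicate 3, where the count over all 24421 transcripts rose as well, from 620 to 1246 and 1124. The median difference of the 8 genes ran from -1.56 to -0.14 with each library left out, the latter without SHF replicate 2. In the 4 libraries with Y-linked transcripts, an alternative chosen after seeing the data in which 1 SHF library stands alone, 64 transcripts and 2 members were CNC-exclusive, and limma called 1 gene, as it did with a pseudocount of 5, but 0 otherwise. There the differences of *Ngfr* (-0.99) and *Cdh19* (1.19) changed sign. Those of *S100b* did without SHF replicate 2 (0.44) or CNC replicate 2 (0.4), and that of *Cdh19* without CNC replicate 2 (0.94). These were 5 of 88 member values, counting those with a replicate block, which could not change. The medians of the GDNF (0.43) and neurotrophin (0.22) lists changed sign without CNC replicate 2, to -0.15 and -0.02, and the latter in the libraries with Y-linked transcripts (-0.08). The causes were not tested. Replicate numbers are shared between lineages, but deviations from the lineage means correlated at -0.011, -0.004 and -0.011, which gives no sign of pairing. Limma with a replicate block called 0 genes. The block cannot change a difference in this balanced design, so the median of -1.09 under it is no check.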
